A study of Mus musculus with 7 samples.

Results

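The genes described here are 7 genes of MHC class II antigen presentation, H2-Aa, H2-Ab1, H2-Eb1, Cd74, H2-DMa, H2-DMb1 and Ciita, measured in cultured mouse mammary glands on 7 CodeLink Mouse Whole Genome arrays. They were taken by name, each through the RefSeq accession of its probe, and are 7 of the 13971 gene symbols matched in this way. Each had 1 probe. MHC class II molecules are pairs of an alpha and a beta chain on the cell surface, and they show peptides from engulfed protein to CD4 T cells. H2-Aa and H2-Ab1 encode the chains of I-A, and H2-Eb1 encodes the beta chain of I-E. Cd74 is the invariant chain, which fills the peptide groove until the H2-DM dimer, encoded by H2-DMa and H2-DMb1, exchanges its remnant for a peptide. Ciita encodes CIITA, the coactivator on which the expression of this family depends. Dendritic cells, macrophages and B cells carry class II molecules as a rule, whereas epithelial and stromal cells can acquire them under interferon gamma.

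The study asked which roles estrogen receptors α and β play in the growth of the mammary gland and in its preneoplastic mammary alveolar lesions (MAL). Glands of 4-week-old female mice were held in serum-free organ culture, and RNA was hybridized to 1 array per group. The αERKO group (the estrogen receptor α gene, Esr1, deleted) and the βERKO group (Esr2 deleted) had a C57BL6/129SV strain background and were cultured for 24 days. The WT + DMBA group held wild-type C57 glands cultured for 24 days with the carcinogen 7,12-dimethylbenz[a]anthracene (DMBA). For each of these 3 groups, RNA of 5 mice was pooled in equal mass. The other arrays held wild-type C57 glands after 10 days and after 24 days of culture, both without DMBA, and wild-type BALB/c glands (Balb/c in the labels) after 24 days of culture, without and with vitamin D5. The titles name DMBA for neither knockout array and for neither BALB/c array, and they give no dose of vitamin D5. According to the paper, however, the αERKO and βERKO glands of its arrays were also cultured with the carcinogen. Under the general protocol, DMBA was given at 2 µg/ml on Day 3 for 24 h, in a phase of 10 days with insulin, prolactin, aldosterone and hydrocortisone that was followed by 14 days with insulin alone. The labels describe 2 pretreatments of the mice, 1 µg estrogen with 1 mg progesterone over 9 days and 25 ng EGF with 1 mg progesterone on 5 days, without assigning either to an array. The paper's text names EGF with progesterone for the WT and knockout arrays. It describes the WT and βERKO glands as bearing MAL and the αERKO glands as free of them. Its methods list αERKO among the array groups but also say that the MAL-free αERKO glands left nothing to harvest for molecular work. How these statements fit the αERKO array was not resolved.

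Values are log2 normalized intensities, that is, the background-subtracted spot intensity divided by the median of the gene probes on its array, so 0 is the level of the median probe. Levels of different probes are not set against each other. The scanner software called a spot good or near background, or gave it another flag, and only good spots counted as measured. The lowest good value lay between -1.88 and -1.47 over the arrays. With 1 array per group there is no test, no p-value and no replicate spread. Differences are described by their size, by the 2-fold threshold of the study's methods and beside all genes of the same comparison. A gene near background on 1 array of a pair has only a nominal bound, given as "at least". It takes the dim spot at its own value or at the array's lowest good value, whichever is higher. Some spots above that value were still called near background, and another background correction can give a smaller fold.

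Some properties of the arrays touch every value below. Between 68.4% and 74.2% of the gene probes were good, and their median intensity was 39.1 to 53.0 over a median local background of 80 to 83. All 8 markers of mammary epithelium, among them Krt8, Krt5 and Epcam, were good on all 7 arrays. The Esr1 probe was good on the WT + DMBA array (-1.02) and the array with vitamin D5 (-0.74) alone. The Esr2 probe was good on the βERKO array (0.87) and the WT 24-day array (-0.55) alone. Its intensity on the βERKO array was 77.2 over a local background of 80. Since a good spot for the gene deleted in βERKO mice goes against the label, this array is called the array labelled βERKO. Whether the probe lies in the deleted part of the gene was not tested, and if it lies outside, the signal says nothing about the label. The αERKO array stood apart from the others in skeletal muscle genes. The summed normalized intensity of 7 matched muscle markers was 1811 on it and between 6.59 and 47.1 on the other 6 arrays.

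CIITA acts through factors bound to X and Y boxes just before the start of class II genes. RefSeq's promoter table (GRCm38.p6) held 4 of the 7 genes, H2-Aa, H2-Eb1, H2-DMa and H2-DMb1. The 150 bases before the start are shown for 3 of them, because a chain of I-A, a chain of I-E and a chain of H2-DM each held a Y box core, with an X1 or X2 match before it. Sequences run 5′ to 3′ on the strand of the gene, from chr17:34287824-34287973 (minus strand) for H2-Aa, chr17:34305717-34305866 (plus strand) for H2-Eb1 and chr17:34153041-34153190 (plus strand) for H2-DMb1. Capitals mark matches to the motifs named after them.
H2-Aa: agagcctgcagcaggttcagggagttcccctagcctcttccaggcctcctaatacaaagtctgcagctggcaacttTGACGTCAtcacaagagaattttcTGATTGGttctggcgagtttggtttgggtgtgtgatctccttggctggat
H2-Eb1: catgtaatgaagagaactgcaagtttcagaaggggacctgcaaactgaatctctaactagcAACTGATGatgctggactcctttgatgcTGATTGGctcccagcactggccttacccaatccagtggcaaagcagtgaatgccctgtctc
H2-DMb1: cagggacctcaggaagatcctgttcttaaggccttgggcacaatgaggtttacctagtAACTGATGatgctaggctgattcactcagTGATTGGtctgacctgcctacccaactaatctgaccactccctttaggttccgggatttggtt

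The motifs were chosen after the promoters had been read and were searched on both strands of the table's windows, which run from 250 bases before the start to 50 after. The Y box core, TGATTGG, began 50 bases before the start in H2-Aa, 61 in H2-Eb1 and 63 in H2-DMb1. Of the 32851 promoters in the table, 7.82% hold it. The X1 box core, AACNGATG, began 89 bases before the start in H2-Eb1 and 92 in H2-DMb1, and 2.32% of promoters hold it. Both motifs together are in 0.186% of promoters. The X2 box in its cyclic AMP response element form, TGACGTCA, began 74 bases before the start in H2-Aa and is in 1.79% of promoters. It does not overlap the other motifs there. In the 2 windows listed for H2-DMa there were 0 matches to these letters. A match describes the sequence and not a bound factor.

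The I-A chains were bright on the αERKO array and dim on most others. H2-Aa (probe GE41546), the alpha chain, had a log2 level of 6.61 on the αERKO array, 2.08 with WT + DMBA, -0.20 on the WT 24-day array and -0.39 on the BALB/c array. It was near background at -2.53 on the array labelled βERKO, -2.57 on the WT 10-day array and -1.58 on the array with vitamin D5. In spot intensity the αERKO value was 3812 and the WT + DMBA value 217, over a local background of 82 to 85 on the 7 arrays. The αERKO array was thus the highest, WT + DMBA the second, and 3 arrays gave no signal that the software separated from background. H2-Ab1 (GE35520), the beta chain, had a level of 4.91 for αERKO, 0.81 on the array labelled βERKO and -1.35 with vitamin D5. It was near background on the other 4 arrays, at -2.18 with WT + DMBA, -3.36 for WT 10 days, -2.34 for WT 24 days and -1.99 for BALB/c. Apart from the αERKO array, no array had both chains of I-A good.

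H2-Eb1 (GE36351), the beta chain of I-E, had a level of 5.70 on the αERKO array, 1.20 with WT + DMBA, -0.34 for BALB/c and -0.33 on the array labelled βERKO. Its near-background values were -2.47 for WT 10 days, -1.63 for WT 24 days and -2.12 with vitamin D5. The order of its 2 highest arrays was that of H2-Aa. The H2-b haplotype shared by C57BL/6 and 129SV mice makes no transcript of H2-Ea, the partner chain, while the H2-d haplotype of BALB/c does. No probe was matched to H2-Ea, so the strain labels were not checked with it. Class II genes are polymorphic, and whether a strain's allele changes the binding to these probes was not tested.

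Cd74 (GE32911) followed the same order at the top, with 5.12 on the αERKO array, 0.87 with WT + DMBA and -0.62 on the BALB/c array. It was near background on the other 4 arrays, with -3.63 on the array labelled βERKO, -2.47 for WT 10 days, -3.39 for WT 24 days and -1.65 with vitamin D5. H2-Aa and Cd74 were both near background on the array labelled βERKO, where H2-Ab1 and H2-Eb1 were good.

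H2-DMa (GE35521), the alpha chain of the peptide exchanger, was good on all 7 arrays. Its levels were 3.28 on the αERKO array, 1.88 with WT + DMBA, 1.86 for WT 24 days, 1.53 with vitamin D5, 1.42 for WT 10 days, 1.20 for BALB/c and 1.01 on the array labelled βERKO. The 6 arrays other than αERKO lay within a range of 0.87, and only the αERKO array was apart. H2-DMb1 (GE1480907), the beta chain, was good at 3.52 for αERKO, 2.19 on the array labelled βERKO, -0.05 with WT + DMBA, -0.90 for WT 10 days and -1.05 for BALB/c. It was near background for WT 24 days (-1.01) and with vitamin D5 (-1.90). H2-DMb1 has a near-identical copy, H2-DMb2, so the signal may come from either gene. The separate H2-DMb2 probe was near background on the 6 arrays other than αERKO, with -2.44 on the array labelled βERKO. Whether either probe tells the genes apart was not tested. Ciita (GE33460) was good on every array, at 1.43 on the αERKO array and between -1.32 and -1.06 on the other 6. These 6 values span 0.26 and lie close to the lowest good value, so differences among them were not resolved.

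**Figure D1:**
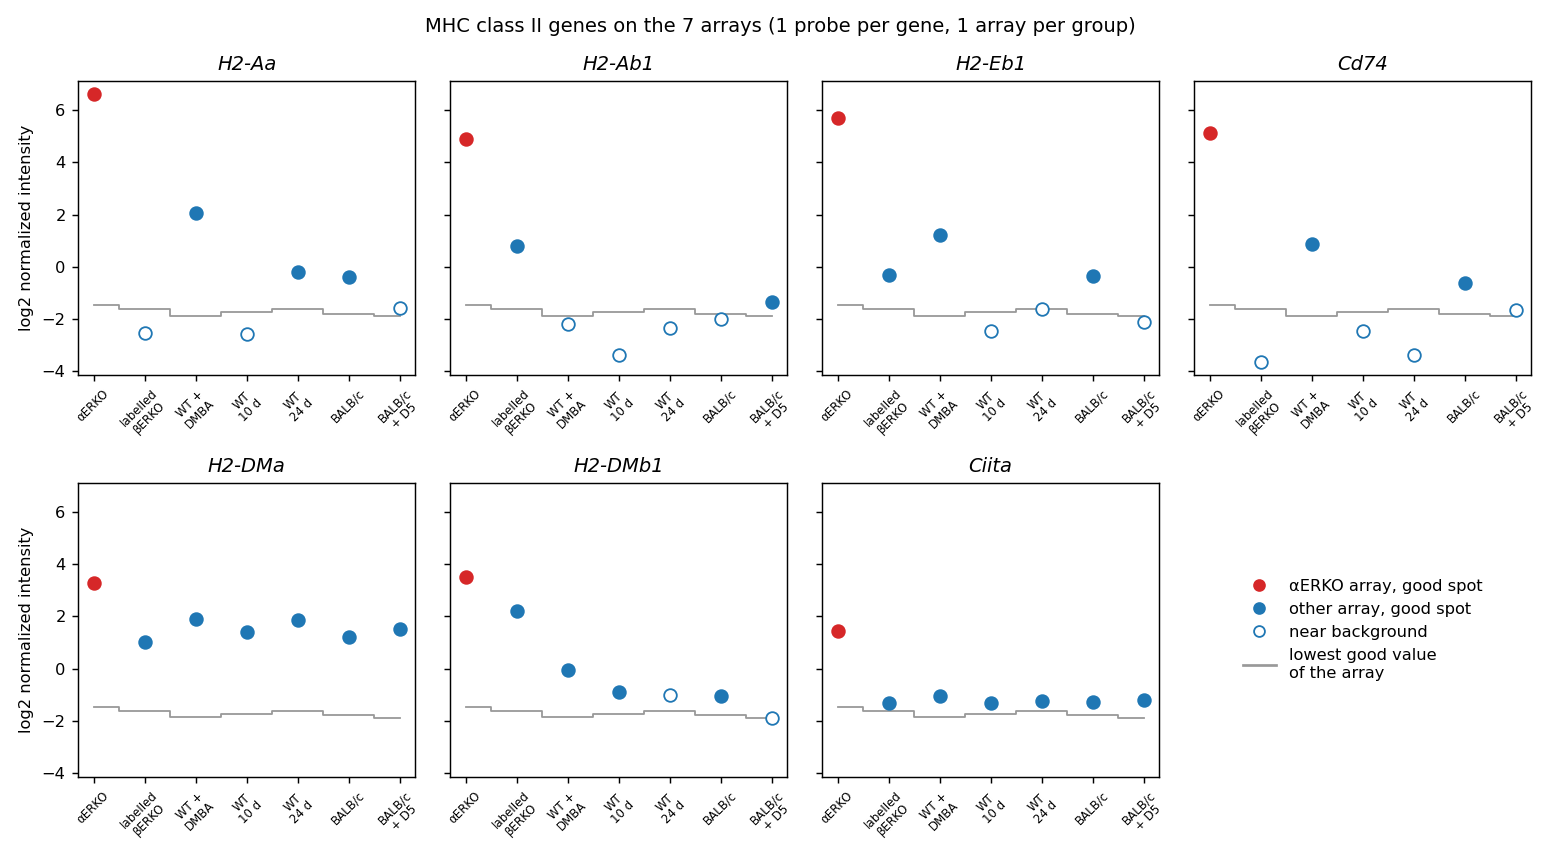
Log2 normalized intensity (y axis) of the 7 MHC class II genes on the 7 arrays (x axis), 1 point per array. Filled points are good spots, open points are near background, and the grey line is the lowest good value of each array. The αERKO point is the highest in every panel, with H2-Aa at 6.61 and Ciita at 1.43.

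All 7 genes were highest on the αERKO array, and in each the gap to the next array was over 2-fold. Of the 13244 genes good on at least 1 array, 5.43% (719 genes) had this pattern. The gap was 23.1-fold for H2-Aa, 22.6-fold for H2-Eb1 and 19.0-fold for Cd74, with WT + DMBA next. It was 17.2-fold for H2-Ab1, with the array labelled βERKO next. The gap was smaller for Ciita (5.59-fold), H2-DMa (2.63-fold) and H2-DMb1 (2.51-fold). In bulk tissue, fewer cells of a type and less RNA per cell cannot be told apart. The number of genes called good was 7 of 7 on the αERKO array, 6 on the WT + DMBA and BALB/c arrays, 5 on the array labelled βERKO and 3 on each of the other arrays.

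αERKO glands were compared with WT + DMBA glands to ask what differs without estrogen receptor α. All 7 genes were over 2-fold higher on the αERKO array and 0 were lower. Of the 12189 genes measured in this comparison, 10.2% were over 2-fold higher and 15.2% over 2-fold lower. The log2 ratio was 4.53 for H2-Aa, 4.50 for H2-Eb1, 4.25 for Cd74, 3.57 for H2-DMb1, 2.48 for Ciita and 1.40 for H2-DMa. H2-Ab1, near background with WT + DMBA, was at least 110.1-fold higher on the αERKO array. H2-Aa, H2-Eb1 and H2-DMb1, whose promoters are printed above, were all good on both arrays, and the smallest difference among them was 11.9-fold, for H2-DMb1. The median log2 ratio of the 7 genes was 4.25, and that of all genes was -0.17. Between probes of the same accession, both good on these arrays, log2 ratios differed with an SD of 0.61 over 535 pairs. This SD covers error between probes and not between mice or arrays. The strain background (C57BL6/129SV against C57) and the presence of MAL differ together with genotype and cannot be told apart from it.

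On the array labelled βERKO, the I-A chains stood in opposite directions against WT + DMBA, each by a ratio with 1 spot near background. H2-Aa was at least 13.0-fold lower and H2-Ab1 at least 6.40-fold higher. H2-DMb1 was higher with a log2 ratio of 2.24, and H2-DMa was within 2-fold at -0.87. Cd74 was at least 5.63-fold lower, H2-Eb1 had a log2 ratio of -1.53, and Ciita had -0.26. Over the 7 genes, 2 were over 2-fold higher, against 6.62% of 12077 genes, and 3 over 2-fold lower, against 7.29%. Over genes good on both arrays, 1 was over 2-fold higher (H2-DMb1) and 1 lower (H2-Eb1). The median of the 7 genes was -0.87 and that of all genes 0.14. The SD between probes of the same accession was 0.38 over 556 pairs. The genotype behind these directions depends on the label of this array, which was not tested beyond the Esr2 signal given above.

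Set against the array labelled βERKO, all 7 genes were over 2-fold higher on the αERKO array, as were 11.8% of 12006 genes, while 20.2% were lower by that much. H2-Aa was at least 299.96-fold higher and Cd74 at least 107-fold higher. The log2 ratio was 6.03 for H2-Eb1, 4.10 for H2-Ab1, 2.74 for Ciita, 2.26 for H2-DMa and 1.33 for H2-DMb1. The median was 4.10, beside -0.30 for all genes, and the SD between probes was 0.58 over 527 pairs. This comparison shares its arrays with both comparisons above.

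**Figure D2:**
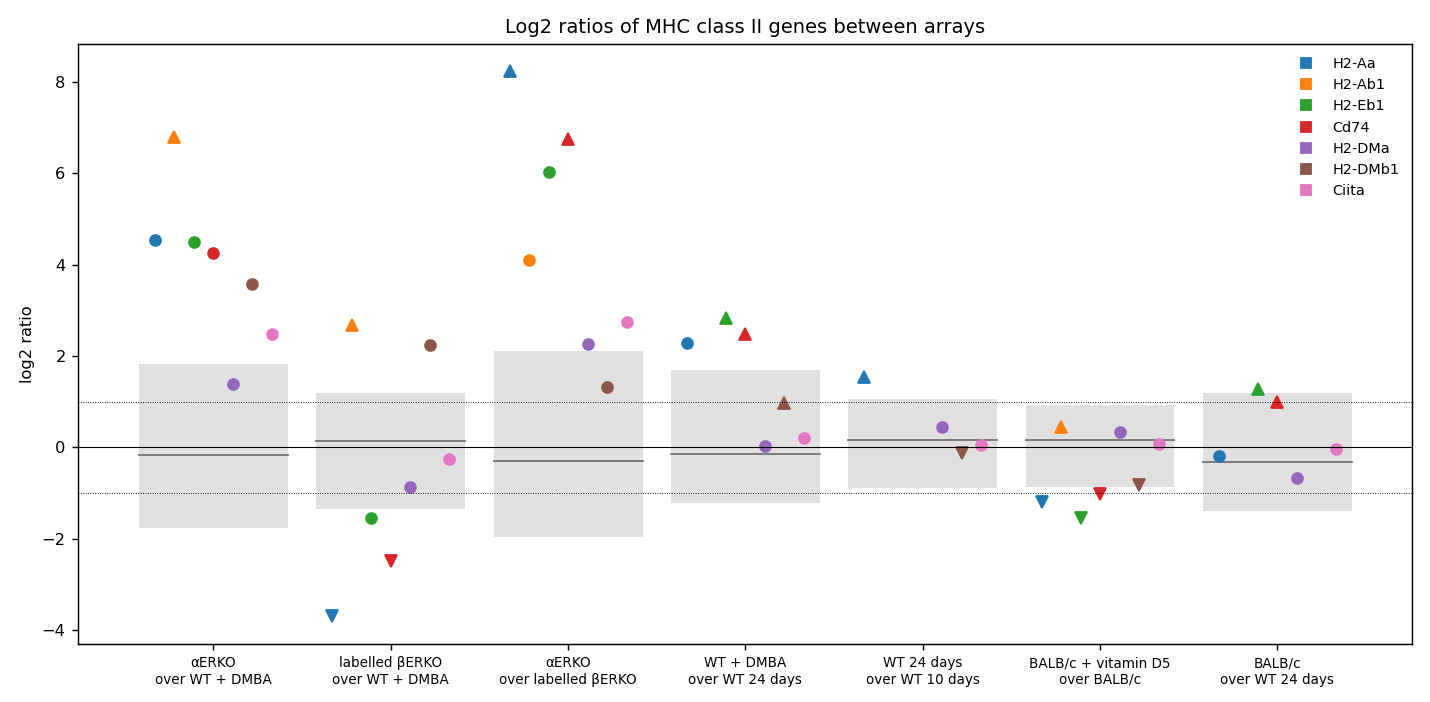
Log2 ratio (y axis) of each MHC class II gene in 7 comparisons of arrays (x axis). Circles are genes good on both arrays, and triangles are nominal bounds, pointing up where higher and down where lower. The grey box spans the 5th to 95th percentile of all genes measured with their median as a line, and dotted lines mark 2-fold. Genes near background on both arrays, and H2-DMb1 in the last comparison, are not drawn. In the comparison of αERKO with WT + DMBA, H2-DMa at 1.40 lies inside the box and the other 6 genes lie above it.

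The WT + DMBA array was compared with the WT 24-day array to see glands of the same strain and culture time with and without the carcinogen. H2-Eb1 was at least 7.08-fold higher with DMBA, Cd74 at least 5.62-fold higher, and H2-Aa had a log2 ratio of 2.28. H2-DMb1 was at least 1.95-fold higher. H2-DMa and Ciita were close to equal, with log2 ratios of 0.02 and 0.20, and H2-Ab1 was near background on both arrays. Of the 6 genes measured, 3 were over 2-fold higher, beside 11.6% of 12150 genes, and 0 were over 2-fold lower, beside 7.79%. Their median was 1.62, and that of all genes was -0.15. Over genes good on both arrays the median was 0.20, since it then rests on H2-Aa, H2-DMa and Ciita. The SD between probes was 0.31 over 542 pairs.

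Between 10 and 24 days of culture without DMBA, 4 genes were measured. H2-Aa was at least 2.89-fold higher at 24 days, the log2 ratio of H2-DMa was 0.44 and that of Ciita 0.06, and H2-DMb1 was at least 1.08-fold lower. H2-Ab1, H2-Eb1 and Cd74 were near background on both arrays. Thus 1 gene was over 2-fold higher, beside 5.47% of 11887 genes, and 0 were lower, beside 4.34%. The median of the 4 genes was 0.25 and that of all genes 0.16, with an SD between probes of 0.23 over 531 pairs.

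With vitamin D5, H2-Eb1, H2-Aa, Cd74 and H2-DMb1, which were good on the BALB/c array without it, were near background. H2-Eb1 was at least 2.91-fold lower, H2-Aa at least 2.28-fold lower, Cd74 at least 2.03-fold lower and H2-DMb1 at least 1.78-fold lower, while H2-Ab1 was at least 1.36-fold higher. The genes good on both arrays had log2 ratios of 0.33 (H2-DMa) and 0.08 (Ciita). In this comparison 3 genes were over 2-fold lower, beside 4.39% of 12177 genes, and 0 were over 2-fold higher, beside 4.41%. Their median of -0.85, with 0.16 for all genes, became 0.21 over the genes good on both arrays. The direction thus rests on spots near background. The SD between probes, for good spots, was 0.23.

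BALB/c glands were also set against WT glands of the same culture time. H2-Eb1 was at least 2.42-fold and Cd74 at least 1.996-fold higher in BALB/c, and the log2 ratio was -0.19 for H2-Aa, -0.66 for H2-DMa and -0.03 for Ciita. For H2-DMb1, near background for WT 24 days, no fold was given because the bound was under 1, and H2-Ab1 was near background on both arrays. By measured values 2 genes were over 2-fold higher, beside 6.22% of 12113 genes, and 0 were over 2-fold lower, beside 12.2%. The median of the 6 genes measured was -0.04, and that of all genes -0.31. The SD between probes was 0.33 over 537 pairs.

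The remaining class II genes with a matched probe were also highest on the αERKO array. H2-Oa and H2-Ob encode H2-O, which restrains H2-DM. On the αERKO array H2-Oa had a log2 level of 2.72 and H2-Ob of 1.38, with ratios to WT + DMBA of 1.48 and 2.47. H2-DMb2 was good on the αERKO array alone, at 0.52, and whether its probe also reads H2-DMb1 was not tested. Thus 3 of 3 matched genes were over 2-fold higher than with WT + DMBA, beside 10.2% of all genes. Each was also over 2-fold above the next of the other 6 arrays, beside 5.43% of all genes. Probes for H2-Ea and H2-Eb2 were not matched.

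Genes that prepare antigen for class II molecules had lower values on the αERKO array than with WT + DMBA. Of 10 such genes, 0 were higher and 7 lower by over 2-fold, beside the 10.2% and 15.2% of all genes given above, with a median log2 ratio of -1.25. Among the lower genes were Lgmn (legumain, an endosomal protease) at -2.51, Ctss (cathepsin S, which trims the invariant chain) at -1.52, Ctsl (cathepsin L) at -1.48 and Ctsb (cathepsin B) at -1.31. Marchf1, a ubiquitin ligase that removes class II molecules from the surface, was within 2-fold. The summed normalized intensity of the list was 708 on the αERKO array and 487 to 1292 on the others, with the highest for WT + DMBA. Against the array labelled βERKO, 1 of the 10 was over 2-fold higher on the αERKO array and 2 lower. The shares of all genes there were 11.8% and 20.2%. With WT + DMBA against WT 24 days, 3 of the 10 were over 2-fold higher (Marchf1 at 2.38, Ctsb at 1.56 and Lgmn at 1.46) and 0 lower, beside 11.6% and 7.79% of all genes. In BALB/c against WT 24 days, 7 of the 10 were over 2-fold lower, led by Ctss at -2.62, and 0 higher, beside 12.2% and 6.22% of all genes.

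The factors that act with CIITA at the X and Y boxes, and 2 further factors of leukocytes, formed a list of their own. Of the 8 transcription factors measured, 0 were over 2-fold higher on the αERKO array than with WT + DMBA and 1 was lower, Spi1 (PU.1, a factor of myeloid and B cells), at -2.24, beside 10.2% and 15.2% of all genes. Nfya, a subunit of the Y box factor NF-Y, had a ratio of -0.98, Irf8 had -0.54 and the coactivator gene Crebbp 0.51. The median of the 8 was -0.46. Rfx5 was near background on all 7 arrays and so not measured, and Rfxank and Ep300 had no matched probe.

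Interferon gamma is the classic inducer of Ciita. Of 11 genes of its signalling and response, 4 were over 2-fold higher on the αERKO array than with WT + DMBA and 2 lower. The shares of all genes were 10.2% and 15.2%. The higher genes were Gbp3 at 1.74, Socs1 at 1.39, Igtp at 1.23 and Ifng, which was near background with WT + DMBA. The 2 lower genes were Ifngr2, a chain of the receptor, at -1.62, and Irf2, which had only a bound, under 2-fold, since its αERKO spot was near background. The median was 0.57. Only Gbp3 and Igtp, both interferon-inducible GTPases, were over 2-fold above each of the other 6 arrays. Among genes of costimulation and T cell contact, 2 of 7 were over 2-fold higher and 0 lower, beside 10.2% and 15.2% of all genes. The higher ones were Cd4 (the coreceptor that binds class II molecules) at 2.09 and Cd274 (PD-L1) at 1.01, and the median was 0.60.

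Class I presentation served as the neighbouring pathway. Of 12 genes, 1 was over 2-fold higher on the αERKO array than with WT + DMBA (Psmb10, an immunoproteasome subunit, at 1.28) and 1 was lower (Tapbp, tapasin, with levels of -0.13 and 1.37), beside 10.2% and 15.2% of all genes. The median was 0.15, that of all genes being -0.17. With WT + DMBA against WT 24 days, 3 of the 12 were over 2-fold higher, the immunoproteasome subunits Psmb9 at 1.43, Psmb8 at 1.31 and Psmb10 at 1.18, with 0 lower, beside 11.6% and 7.79% of all genes.

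**Figure D3:**
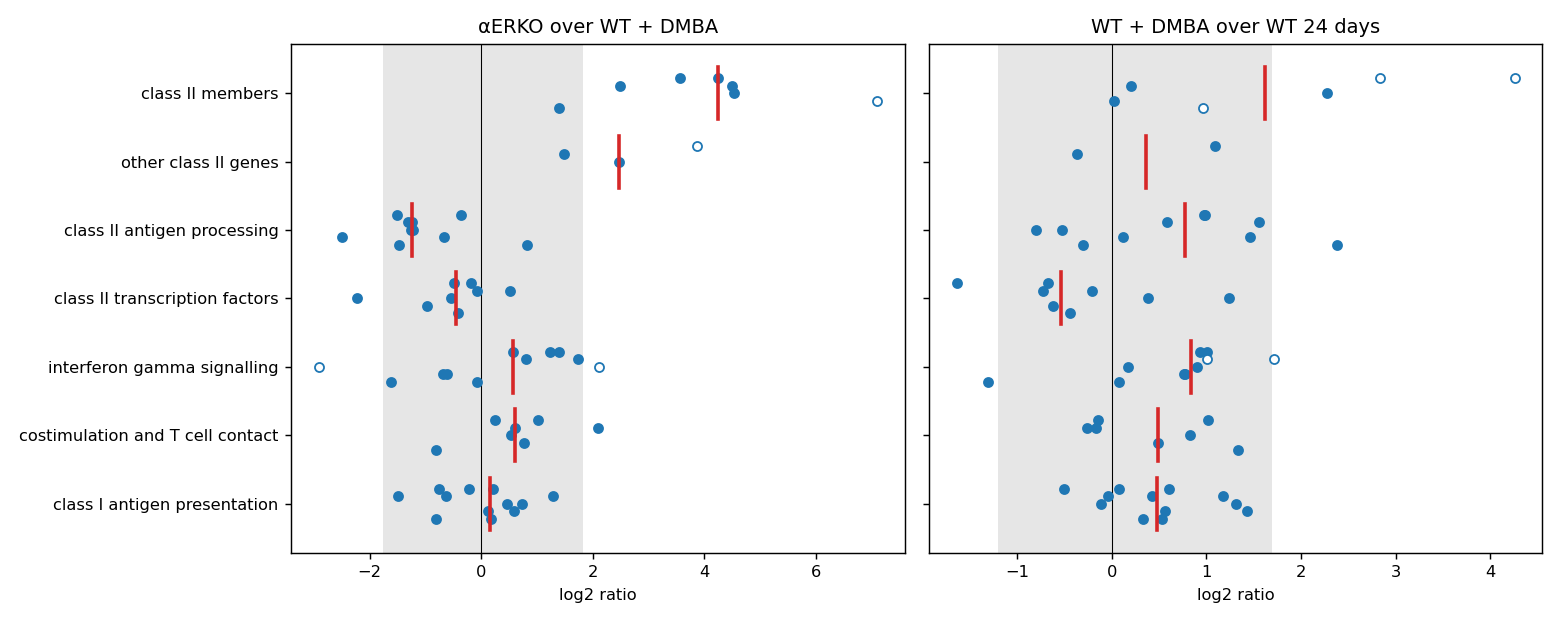
Log2 ratios (x axis) of genes in the MHC class II group and in 6 related lists (y axis), for αERKO over WT + DMBA (left) and WT + DMBA over WT 24 days (right). Each point is a gene, open where it was near background on 1 of the arrays and then drawn at its measured value; red bars are medians and the grey band spans the 5th to 95th percentile of all genes. On the left the median is 4.25 for the class II group and -1.25 for antigen processing genes.

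Markers of cells that carry class II molecules were examined on the same arrays. Of 9 dendritic cell markers, 3 were over 2-fold higher on the αERKO array than with WT + DMBA and 1 lower. The shares of all genes were 10.2% and 15.2%. The higher ones were Cd209a (DC-SIGN family) at 3.28, Batf3 (a dendritic cell transcription factor) at 2.95 and Ccr7, which was good on the αERKO array alone. Clec10a was lower, at -2.49, and the other 5, Itgax, Flt3, Zbtb46, Clec9a and Fscn1, were within 2-fold. The median of the 9 was -0.07. The summed normalized intensity of the list was 37.8 on the αERKO array and 13.5 to 39.8 on the other 6. All 9 markers were good on the αERKO array, and 8 on each of the others.

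B cell markers gave a sum of 22.1 on the αERKO array and 12.2 to 14.6 elsewhere. Of 7, 3 were over 2-fold higher than with WT + DMBA (Ms4a1, Cd79b and Blk) and 0 lower, beside 10.2% and 15.2% of all genes. Ms4a1, which encodes CD20, was good on the αERKO array alone, and its BALB/c spot, at 0.00, carried another flag. Blk, at -0.41 on the αERKO array, was higher on the WT 24-day array, at 0.25. Cd79a, Pax5 and Cd22 were among those within 2-fold, with log2 ratios of 0.13, -0.30 and -0.87. T cells of the mouse make little class II themselves. Their markers gave a sum of 78.5 on the αERKO array and 8.59 to 10.9 elsewhere. Of 5 measured, 4 were over 2-fold higher than with WT + DMBA (median 4.02) and 0 lower, beside 10.2% and 15.2% of all genes. Among the higher ones were Cd3d at 4.72, Cd2 at 4.02 and Lck at 3.62, while Cd247 was at 0.05. Cd3e was near background on all 7 arrays. Of 4 pan-leukocyte markers, 2 were over 2-fold higher and 0 lower, beside the same 10.2% and 15.2%. The higher ones were Coro1a with a ratio of 2.58 and Ptprc (CD45) with 1.20. Laptm5 had -0.80, and Lcp1 was near background on the αERKO array (-0.87, beside -0.12 with WT + DMBA). The median of the 4 was 0.23.

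Macrophage markers were lower on the αERKO array than with WT + DMBA, with a median log2 ratio of -1.78, and higher than on the array labelled βERKO, with a median of 1.64. Against WT + DMBA, 6 of 8 measured were over 2-fold lower, beside 15.2% of all genes, including Mrc1 at -2.66, C1qc at -2.56 and C1qa at -2.07, and Aif1 alone was higher. Against the array labelled βERKO, 5 of 8 were over 2-fold higher, beside 11.8%, and 1 was lower. Their sum was 185 on the αERKO array and 128 to 697 on the others, with the highest for WT + DMBA. In that group, 7 of 8 macrophage markers were over 2-fold higher than in the WT 24-day group, beside 11.6% of all genes. C1qc was at 3.09 and Mrc1 at 3.03, and H2-Aa, H2-Eb1 and Cd74 were also higher. Markers of other tissues moved there too: 6 of 6 fibroblast, 4 of 4 endothelial and 3 of 5 adipocyte markers were over 2-fold higher. Of 8 epithelial markers, 3 were over 2-fold lower, beside 7.79% of all genes. On the array labelled βERKO, 6 of 8 macrophage markers were over 2-fold lower than with WT + DMBA, beside 7.29% of all genes. C1qc was at -4.29 and C1qa at -4.19. H2-Aa, Cd74 and H2-Eb1 were also lower there, and H2-Ab1 and H2-DMb1 higher. Of the fibroblast markers 5 of 6, and of the endothelial markers 4 of 4, were over 2-fold lower there. In BALB/c against WT 24 days, 5 of 8 macrophage markers were over 2-fold lower, beside 12.2% of all genes, and 1 was higher. H2-Eb1 and Cd74 were higher in BALB/c. Mertk carried another flag on all 7 arrays and was left out of the counts of macrophage markers. No probe was matched to Xcr1, Adgre1, Csf1r, Cd68, Ighm, Cd8a or Cd5. The part of leukocyte numbers in the class II values was not tested.

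Markers of other tissues also set the αERKO array apart. In the comparison with WT + DMBA, 10.2% of all genes were over 2-fold higher and 15.2% over 2-fold lower, and each count here stands beside these shares. All 7 skeletal muscle markers were over 2-fold higher, with a median log2 ratio of 8.15 and values such as 8.82 for Atp2a1 and 8.49 for Tnni2. Of 8 epithelial markers, 4 were over 2-fold lower, with Krt14 at -2.42 and Krt8 at -1.65, and their sum was 429 beside 581 to 1529 on the other arrays. Of 6 fibroblast markers, 2 were over 2-fold higher (Dcn at 1.42 and Lum at 1.40), of 5 adipocyte markers 0 were past 2-fold in either direction, and of 4 endothelial markers 1 was higher (Kdr at 1.29) and 2 were lower. Neutrophil markers were 2 higher and 2 lower of 5. The class II genes themselves summed to 238 on the αERKO array and 4.23 to 13.7 on the others. The part of these tissues in the class II values was not tested.

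**Figure D4:**
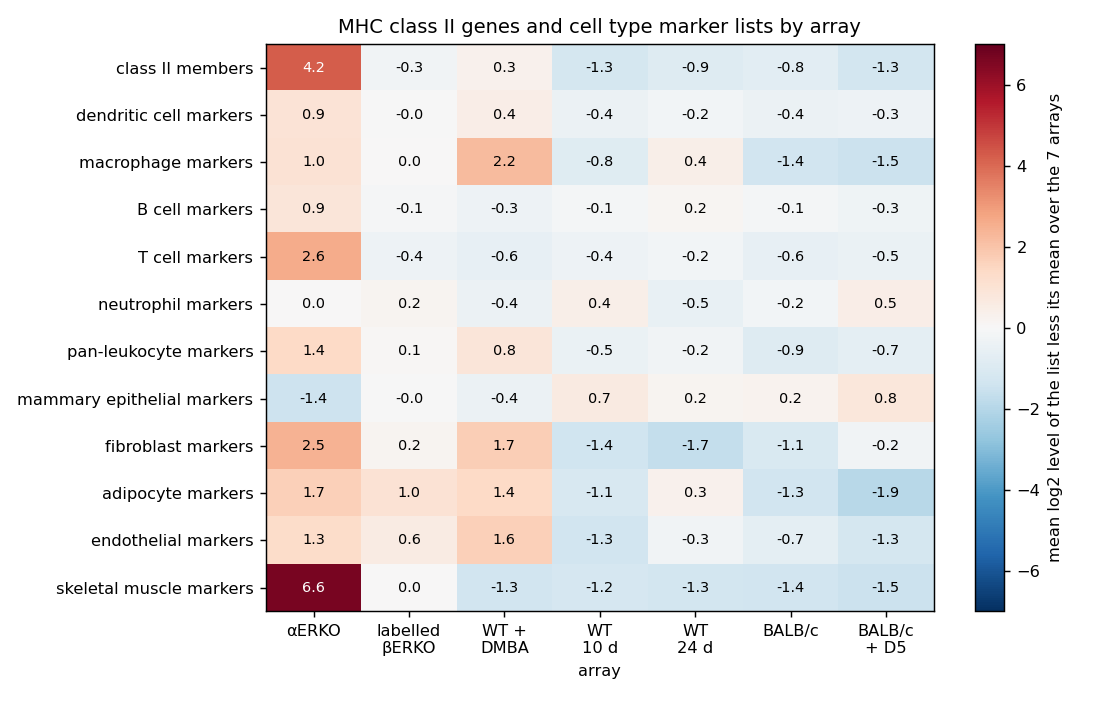
Mean log2 level of the 7 MHC class II genes and of 11 cell type marker lists (rows) on each array (columns), less the mean of that list over the 7 arrays, with values below the lowest good value raised to it. Colour and printed numbers give the same value; the αERKO column is 4.2 for the class II group, 2.6 for T cell markers, 1.0 for macrophage markers and 6.6 for skeletal muscle markers.

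The profile over the 7 arrays was also compared with those of other genes. H2-DMa and Ciita were the only 2 of the 7 good on all arrays, and their mean profile was set against 9336 other genes good on all arrays. The smallest root mean square differences in centred log2 levels were those of Slc1a3 (a glutamate transporter) at 0.16, Mamstr (a muscle transcription cofactor) at 0.18, Fam189b at 0.19, Slc25a23 (a mitochondrial carrier) at 0.20 and Alas2 (heme synthesis) at 0.20. Slc1a3, for example, had a level of 3.35 on the αERKO array and 0.77 to 1.41 on the other 6. A second ranking, added after the values were seen, used all 7 class II genes with values raised to the lowest good value and 13237 candidate genes. It was led by Prtn3 (proteinase 3) at 0.30, Aqp1 (a water channel) at 0.35, Fabp3 (a fatty acid binding protein of muscle) at 0.38, Cilp (a matrix protein) at 0.38 and Casq1 (a calcium store protein of muscle) at 0.39. Each of the genes named from the rankings was highest on the αERKO array, which their choice by nearness to profiles that peak there largely fixed.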

How the data were processed

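Each array was hybridized by the authors with biotinylated cRNA, stained with Cy5-streptavidin, scanned at 5 µm and read with the CodeLink Expression Analysis software. Their analysis used GeneSpring GX 7.3. The deposited intensity of a spot is its mean signal less its local background, with a quality call. A deposited series table was not used, because its rows could not be matched to probes.

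Following the study's methods, the intensity of each of 34967 gene probes was expressed relative to the array's median. This median left out 320 negative and 300 positive control spots. Before log2 was taken, any value not above 0 received the lowest positive value of its array. RefSeq's gene table (GRCm38.p6) named 14763 of 15553 probes with a RefSeq accession, and 131 of the 148 genes on the 18 lists were matched. Where a gene had more than 1 probe, the one with the largest average log2 value stood for it. A ratio was counted where the probe was good on at least 1 of the 2 arrays. A bound sets the bright value against the higher of the dim probe's value and the array's lowest good value. That value is not the detection limit of the probe, so the bound holds for this scaling alone. After normexp background correction, H2-Ab1 had a log2 ratio of 4.43 for αERKO over WT + DMBA, beside a bound of 6.78. H2-Aa had 6.04 for αERKO over the array labelled βERKO, beside a bound of 8.23. Named were all 7 class II genes, up to 4 genes of each other list per comparison with the largest ratios among probes good on both arrays, and the 5 genes of nearest profile; others were named after their values were seen, as part of a count. The value of 1 marker gene is not reported here. The genes and lists were chosen with earlier results of these data known.

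Alternatives were the 75th percentile, quantile normalization, normexp correction with an offset of 50 (limma 3.58.1 in R 4.3.3), the deposited normalized intensities, a floor at the lowest good value, thresholds of 1.5-fold and 3-fold, genes good on both arrays and, added after the data were seen, a median over all spots. Counting was tested on simulated data. Python 3.11.15, numpy 2.4.6 and pandas 2.3.3 were used. The number of arrays limits precision.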

Additional observations from a re-analysis of the deposited data

How the results depend on the processing

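No paired analysis was possible because each group has 1 array, and for the same reason no replicate could be left out. In each of 6 other scalings or floors, all 7 genes remained highest on the αERKO array by over 2-fold; the smallest gap was 1.01 on the log2 scale, for H2-DMa after normexp background correction. Of 56 recomputed medians of the genes, 49 moved by less than the SD between probes of the same accession and 7 moved further. After normexp correction the median log2 ratio was 3.44 for αERKO over WT + DMBA, 3.32 for αERKO over the array labelled βERKO, 0.80 for WT + DMBA over WT 24 days and -0.23 for vitamin D5 over BALB/c alone. Over genes good on both arrays it was 2.74, 0.20 and 0.21 for the last 3 of these, the last with its sign turned. Normexp adds an offset to every signal, which shrinks ratios of dim spots, and the good-on-both filter leaves fewer genes. Of 308 recomputed ratios of single genes, 35 moved further than that SD. For the array labelled βERKO over WT + DMBA, normexp correction moved H2-Aa from -4.60 to -2.02 and H2-Ab1 from 2.99 to 1.11. Of 140 counts over a fold threshold, 14 moved by over 1.5 times; no normalization changed the count of 7 higher for αERKO over WT + DMBA. Scaling to the 75th percentile shifted the median of all genes by 0.13 for αERKO over WT + DMBA, 0.18 for αERKO over the array labelled βERKO, -0.13 for vitamin D5 and 0.22 for BALB/c over WT 24 days. Dim spots limit the values: 4 of the 7 genes were near background on at least 3 arrays, where only bounds can be given.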
